A study of Mus musculus with 4 samples.

Results

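The transcription factors that set and keep islet cell identity were followed here as a group of 9 genes: Pdx1, Nkx6-1, Nkx2-2, Neurod1, Mafa, Isl1, Pax6, Insm1 and Neurog3. They were found by the gene name that the scanner files give each non-control probe, which returned 13 of 55681 probes, for 9 of 34821 gene names. Neurod1, Neurog3, Nkx2-2 and Pax6 had 2 probes each and the other genes 1. RNA was hybridised to 4 Agilent mouse arrays of the 1-colour kind, 2 for islet-like clusters and 2 for islets of Langerhans, all from male Swiss albino mice aged 10 to 12 weeks. The clusters were made from cells resembling mesenchymal stromal cells that had grown out of collagenase-digested pancreas. Those cells were held for 10 days without serum on low-adherence dishes, with 0.3 mM taurine from day 3. From day 7 the medium held 3 mM taurine, 100 mM nicotinamide and GLP-1, a gut hormone that promotes insulin release. The islets came from the same kind of digest, and the titles give them 48 h in culture whereas the descriptions call them fresh. Both groups came from pools of 2 to 4 mice, and no array holds the stromal cells before induction, so the comparison sets the clusters against islets and does not show what induction changed.

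Islet cells are specified in the embryo from pancreatic epithelium. Neurog3, a basic helix-loop-helix (bHLH) factor, commits progenitors to the endocrine fate and turns on Neurod1 and Insm1, and the homeodomain factors Nkx2-2, Nkx6-1, Pax6, Isl1 and Pdx1 then divide and maintain the hormone cell types. In the adult islet Pdx1, Nkx6-1 and Mafa are hallmarks of beta cells and drive insulin transcription, Isl1, Pax6, Neurod1 and Nkx2-2 are shared by several hormone cell types, and Neurog3 falls to low levels after the embryonic wave. Isl1 is not restricted to islets, since motor neurons and heart progenitors also use it.

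Levels are log2 signal relative to the 75th percentile of the same array, so 0 marks that percentile, and they are compared for the same probe across arrays and never between probes. Differences are islet-like clusters minus islets on the same log2 scale, with the SE of the limma fit and a p-value adjusted by the Benjamini-Hochberg method over all 24596 genes tested. A gene was tested where a probe was well above background, as the scanner software marks it, on both arrays of at least 1 group. All 9 genes were tested, through 10 of the 13 probes. The 3 probes left out, the second probes of Neurod1, Neurog3 and Pax6, were not well above background on any array.

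The 4 arrays had 59.7% to 63.6% of 59305 spots well above background, none was saturated, and all lay on 1 slide with the same scan time, which left no slide or scan batch to test. In the fit 13490 of 24596 genes passed the threshold of 0.05 (54.8%), 26.6% of the genes tested being higher and 28.2% lower in clusters. Fits that leave out 1 array leave 1 array in a group. Without either islet array the SE was 0.54 for each of the 9 factors, against 0.23 to 0.53 in the main fit. A call lost there can reflect this SE and need not mean a smaller difference. The labelled tissues were checked with marker lists. All 12 mesenchymal markers were higher in clusters, where their summed signal, relative to the 75th percentile on a linear scale, was 2265 and 1903 against 50.2 and 57.5 in islets. All 9 endocrine hormone and granule markers tested were lower, with sums of 1.33 and 0.770 in clusters against 182 and 31.3 in islets. Of these 5 were called when the variance was given a trend and fitted robustly, Ins2 (adjusted p = 0.0917) and Chga (adjusted p = 0.0507) not among them. The islet arrays also carried acinar RNA, with sums of 3013 and 4654 against 1.66 and 1.53 in clusters. Of 8 duct markers 7 were lower and 1, Spp1, was higher in clusters, and all 6 endothelial markers were lower.

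A probe sequence and promoter sequences of factors read below come first, and their part in the readings was not tested. The Neurod1 probe is shown because Neurod1 was called higher on dim and uneven readings, and the Pdx1 and Isl1 promoters because Pdx1 was called lower and Isl1 higher. In the Neurod1 probe the capitals mark a run of 6 A, and the probe runs 5′ to 3′ as the scanner files give it.
Neurod1 probe: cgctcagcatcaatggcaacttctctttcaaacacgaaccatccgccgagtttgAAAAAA
The promoter stretches are the 250 bases before the annotated start, from RefSeq on the GRCm38.p6 build, written along the strand of the gene. Pdx1 is at chr5:147269847-147270096 on the plus strand and Isl1 at chr13:116309689-116309938 on the minus strand. Capitals mark the E-box core CANNTG, which reads the same on both strands and is bound by bHLH factors, and the homeodomain core TAAT on either strand.
Pdx1 promoter: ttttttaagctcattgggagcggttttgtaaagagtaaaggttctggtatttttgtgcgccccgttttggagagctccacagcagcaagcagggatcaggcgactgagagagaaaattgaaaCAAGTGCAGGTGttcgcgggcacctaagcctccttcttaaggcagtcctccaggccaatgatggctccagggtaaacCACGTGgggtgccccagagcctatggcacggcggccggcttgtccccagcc
Isl1 promoter: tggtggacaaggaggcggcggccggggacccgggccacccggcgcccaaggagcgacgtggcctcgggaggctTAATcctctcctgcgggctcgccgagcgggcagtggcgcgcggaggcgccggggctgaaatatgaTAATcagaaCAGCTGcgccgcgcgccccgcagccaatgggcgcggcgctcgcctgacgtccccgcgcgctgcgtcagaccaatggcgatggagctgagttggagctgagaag
The table held 8 entries for 7 of the 9 genes. CANNTG occurred in 6 of these 8 stretches and in 66.2% of all 32851 promoters of the same length, and TAAT occurred in 4 of 8 against 54.9%. Pdx1 held 3 CANNTG and 0 TAAT and Isl1 1 and 2, with no overlap between the motifs. These matches describe letters and not binding.

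Of the 9 factors 5 were lower in clusters (Pdx1, Nkx2-2, Insm1, Pax6 and Neurog3), 2 were higher (Isl1 and Neurod1), and Nkx6-1 and Mafa did not pass the test. That is 7 of 9 called, against 54.8% of all genes tested. The arrays of the groups did not overlap for 8 of the 9, against 79.9% of all genes. The median difference of the 9 was -1.49, against -0.10 over all genes, but its size depended on the setting. It was -0.44 with normexp (a background correction described below), -0.70 with dim signals raised to a floor, -0.96 without islet replicate 2 and -0.16 over the 5 factors well above background on all arrays. In these bulk samples fewer cells of a type and less RNA per cell cannot be told apart. Whether the 2 arrays of a group hold separate pools of mice is not stated in the labels, and each p-value then rests on a spread between arrays that may be technical only.

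**Figure D1:**
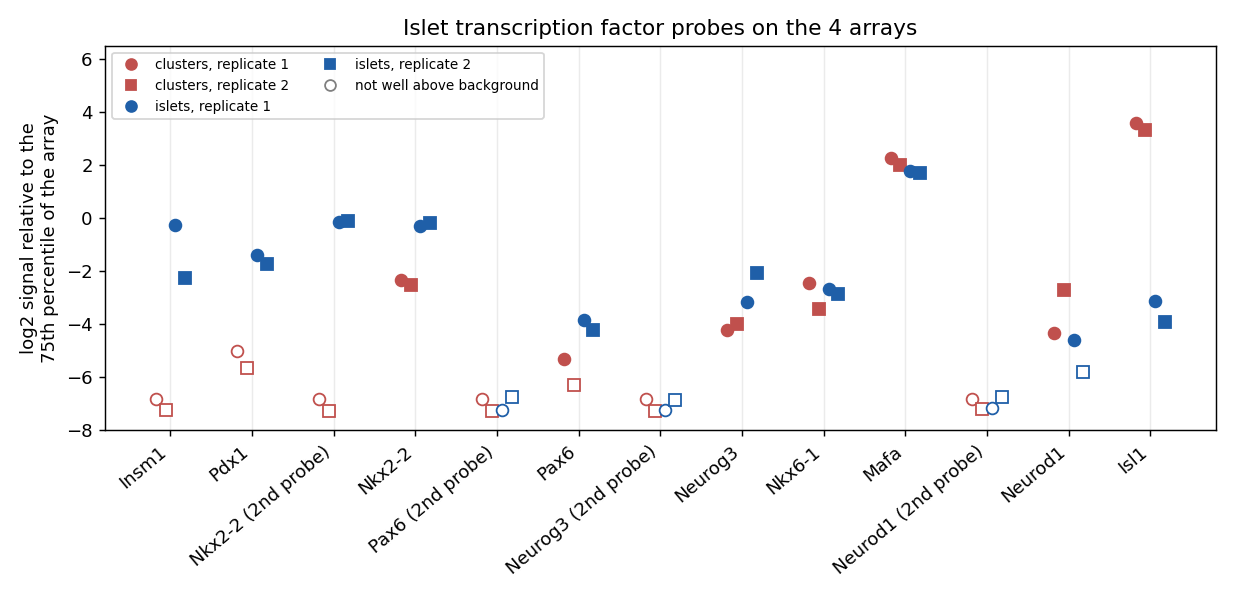
Level of each of the 13 probes on the 4 arrays, as log2 signal relative to the 75th percentile of the array, with clusters in red and islets in blue, circles for replicate 1 and squares for replicate 2. Open symbols mark spots not well above background. Isl1 lies above 3 on both cluster arrays and below -3 on both islet arrays, and Insm1, Pdx1 and the second Nkx2-2 probe were detected on the islet arrays only.

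The endocrine commitment factors come first. Neurog3 was read by a probe at mm9 chr10:61597452-61597511, plus strand. Its level was -4.22 and -3.99 in clusters and -3.15 and -2.08 in islets. All 4 arrays were well above background and both islet arrays lay above both cluster arrays. Scanner signals were nonetheless low, at 17.7 and 24.4 in clusters against 36.7 and 59.1 in islets. The difference was -1.49 ± 0.34 (SE), a 2.81-fold lower level in clusters (adjusted p = 0.00495). Islet replicate 1 minus replicate 2 was -1.07. The call was lost with either cluster array left out (-1.38 without replicate 1 and -1.61 without replicate 2) and without islet replicate 2 (-0.96), and the difference was -0.58 with normexp background correction, which fits the background of each array and adds 50 to every signal. The second Neurog3 probe, at mm9 chr10:61596051-61596110 on the same strand, lay at -6.82 and -7.30 in clusters and -7.24 and -6.86 in islets, which is below detection in both.

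Insm1, a zinc finger factor that acts downstream of Neurog3 in endocrine differentiation, was lower in clusters, where it was not detected. Its probe at mm9 chr2:146050603-146050662, plus strand, read -6.82 and -7.25 in clusters and -0.24 and -2.26 in islets. Neither cluster array was above background and both islet arrays were, at scanner signals of 275 and 52.0 against 2.91 and 2.55. Because the cluster level is only a bound, the difference is given as at least 11.2-fold lower. Here and below such a bound sets the mean of the detected group against the mean, over the other group's arrays, of the higher of the probe's own signal and the lowest spot the array marked well above background. A bound of this kind holds only under the background subtraction of the scanner software. With normexp, each difference that is given a bound here was smaller than that bound. The fitted difference was -5.78 ± 0.53 (adjusted p = 1.56e-05). It depended on the islet array, at -4.77 without islet replicate 1 and -6.79 without islet replicate 2. With normexp it was -1.97, smaller than the bound, which is -3.48 on the log2 scale. The call held in all 15 alternatives that tested it, but these reuse cluster readings that were not above background. The setting that needs detection on all arrays did not test Insm1.

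The genes whose profile over the 4 arrays was most like that of Insm1, by root-mean-square difference of gene-centred log2 values, were the granule protein gene Chga at 0.099, Syce1 at 0.225 and the insulin gene Ins2 at 0.318. The Insm1 values in clusters, and those of Syce1, are below background, so this likeness rests in part on values with no measured level. The match used both islet arrays, so a like gap between them follows from how these genes were chosen. Islet replicate 1 minus replicate 2 was 2.02 for Insm1, 2.19 for Chga and 2.60 for Ins2.

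Neurod1, the bHLH factor that activates the insulin promoter, went the other way, on dim and uneven readings. Its tested probe, at mm9 chr2:79294309-79294368 on the minus strand, read -4.35 and -2.72 in clusters and -4.61 and -5.82 in islets. Both cluster arrays lay above both islet arrays, yet cluster replicate 1 was only slightly above islet replicate 1, and scanner signals were 16.1 and 58.7 against 13.3 and 4.41. Islet replicate 2 was not well above background. The difference was 1.68 ± 0.53, a 3.20-fold higher level (adjusted p = 0.0229).

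The Neurod1 call was lost in 10 of 15 alternatives. Among these the difference was 0.87 without cluster replicate 2, 1.08 without islet replicate 2 and 0.19 with normexp. With the replicate number as a block the adjusted p was 0.154. Its second probe, at mm9 chr2:79293621-79293680, has a GC content of 23.3% and lay between -7.19 and -6.73 on all 4 arrays, below background. The 2 Neurod1 probes therefore gave 1 uncertain difference and no second reading of it.

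Among the homeodomain factors Pdx1, which marks pancreatic progenitors and later beta cells, was lower in clusters. Its probe at mm9 chr5:148086570-148086629, plus strand, read -5.01 and -5.66 in clusters and -1.40 and -1.72 in islets. Both islet arrays were well above background and neither cluster array was, and the groups lay over 3 log2 units apart with under 1 between arrays of a group. The level in clusters was at least 9.04-fold lower, and the fitted difference was -3.78 ± 0.28 (adjusted p = 3.44e-06). It stayed between -4.10 and -3.18 in all alternatives that tested it except normexp. That setting gave -1.44, smaller than the bound, which is -3.18 on the log2 scale. It passed the threshold in all 15, but these reuse cluster readings that were not well above background. The setting that needs detection on all arrays did not test Pdx1.

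Nkx2-2, which beta cells need to form and to stay beta cells, was lower by both of its probes but by very different amounts. The probe used for the gene, at mm9 chr2:147008949-147009008 on the minus strand, read -2.32 and -2.52 in clusters and -0.31 and -0.18 in islets. It was well above background on all arrays, with no overlap. The difference was -2.18 ± 0.23, a 4.52-fold lower level (adjusted p = 4.16e-05), and -1.46 with normexp.

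The second Nkx2-2 probe lies at mm9 chr2:147003307-147003366, 5642 bases further 3′ on the strand of the probe. It read -6.82 and -7.29 in clusters and -0.16 and -0.12 in islets. Here the cluster arrays were not above background while both islet arrays were close to the 75th percentile. In the fit over all 34974 probes kept, of which 53.2% were called, this probe was at least 24.2-fold lower in clusters (-6.92 ± 0.25, adjusted p = 4.07e-07). The 2 probes are annotated to different RefSeq transcripts of the gene, and they differ by 4.74 in their log2 differences. The mean of both was -4.55.

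Other probes of the array lie near Nkx2-2. On the opposite, plus strand, 5135 and 5182 bases from the first Nkx2-2 probe, sit 2 overlapping probes with no gene symbol in the files. The nearer, at mm9 chr2:147014084-147014143, read -6.82 and -7.26 in clusters and 0.06 and 0.30 in islets, at least 30.2-fold lower in clusters. The other, at mm9 chr2:147014131-147014190, read -6.02 and -7.16 against -0.51 and -0.36, at least 19.6-fold lower. With normexp the differences of this pair were -2.81 and -2.15, and that of the second Nkx2-2 probe was -2.77. All are smaller than the bounds, which for the second Nkx2-2 probe is -4.60 on the log2 scale. Both were detected on the islet arrays alone, as the second Nkx2-2 probe was, and they were singled out after their values were seen.

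Nkx6-1, a beta cell factor that also represses other endocrine fates, did not pass the test. Its probe at mm9 chr5:102088319-102088378, minus strand, read -2.44 and -3.41 in clusters and -2.66 and -2.86 in islets. The islet arrays lay between the cluster arrays, and all 4 were well above background. The difference was -0.16 ± 0.32 with a 95% interval of -0.90 to 0.57 (adjusted p = 0.691), and a difference of the size seen for Pdx1 lies outside that interval. Its sign was not stable, at 0.031 with array median scaling, 0.014 with quantile normalization and 0.32 without cluster replicate 2.

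Pax6, the paired-box factor needed for hormone gene expression in several islet cell types, was dim throughout. Its tested probe, at mm9 chr2:105536454-105536513 on the plus strand, has 2 spots per array. The spot mean read -5.31 and -6.31 in clusters and -3.84 and -4.22 in islets. Both islet arrays lay above both cluster arrays. Of its 2 spots, 1 and 0 were well above background in clusters and 2 and 1 in islets, and the spots of cluster replicate 1 and islet replicate 2 had SDs of 2.14 and 1.34.

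The Pax6 difference was -1.78 ± 0.34, a 3.43-fold lower level (adjusted p = 0.00170). It lost its call with normexp (-0.44, adjusted p = 0.117) and with the authors' value table (-1.55, adjusted p = 0.174), and it was -0.70 with dim signals raised to a floor and -1.28 without cluster replicate 2. The second Pax6 probe spans 852 bases at mm9 chr2:105524098-105524949 and was at background on all arrays, between -7.26 and -6.75.

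Isl1 was higher in clusters and was read well above background on all 4 arrays. It is a LIM-homeodomain factor, with a pair of LIM zinc-binding domains beside its homeodomain, that binds the insulin enhancer region in islets. Its probe at mm9 chr13:117088774-117088833, minus strand, read 3.59 and 3.33 in clusters and -3.13 and -3.90 in islets. Scanner signals were 3948 and 3894 against 37.2 and 16.7. Clusters stood far above islets on every array pair.

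The Isl1 probe is printed 10 times on each array, and all 10 spots were well above background on all 4 arrays. The SD between its spots was 0.030 and 0.11 in clusters and 0.19 and 0.21 in islets. The difference was 6.97 ± 0.30, a 126-fold higher level in clusters (adjusted p = 8.26e-08). It was called in all 16 alternatives, at 5.24 with normexp and at 6.59 to 7.36 with 1 array left out. No other member had as many spots behind its value, and Isl1 was detected in islets as well as in clusters.

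Beside Isl1, markers of other cells that could carry it were read. The neural and Schwann list had 7 of 9 genes tested. Of these 2 were higher (Tubb3 and S100b) and 1 lower, against 26.6% higher and 28.2% lower of all genes. The summed signals of the list were 26.1 and 25.3 in clusters and 17.8 and 18.4 in islets. The Tubb3 call did not hold with 1 cluster array left out, whichever it was. Sox10, a marker of Schwann cells, differed by 0.0028 and changed sign in 6 of 16 alternatives, between -0.19 and 0.20. The mesenchymal list, given above, was higher in all 12 genes. Their part in the Isl1 level was not tested. The genes closest to Isl1 in profile were Hmgn3 at 0.0846, Gem at 0.121 and Cabyr at 0.121.

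Mafa, the beta cell maturation factor that binds the insulin promoter, read 2.26 and 1.99 in clusters and 1.77 and 1.69 in islets. Its probe gave scanner signals of 1577 and 1541 against 1110 and 804, and both groups were well above background and close together. The difference was 0.40 ± 0.23 with a 95% interval of -0.13 to 0.93 (adjusted p = 0.180). It passed only with array median scaling (0.59, adjusted p = 0.0336).

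A probe with no gene symbol lies 510 bases from the Mafa probe on the same strand, at mm9 chr15:75577204-75577263. It read -3.19 and -3.49 in clusters and -2.16 and -1.69 in islets, well above background on all arrays. Both islet arrays lay above both cluster arrays, in contrast to the Mafa probe. The difference was -1.41 ± 0.26, a 2.66-fold lower level in clusters (adjusted p = 0.00266 over all probes), and -0.79 with normexp. Without islet replicate 2, which leaves 1 islet array, it was -1.18 and lost its call. Which transcript it reads was not tested, and it was singled out after its values were seen. A probe of another gene, Zc3h3, lies 7163 bases from the Mafa probe on the same strand. It read 2.42 and 2.15 in clusters and 1.88 and 1.84 in islets, a difference of 0.43 that did not pass (adjusted p = 0.161 over all probes). Whether the Mafa reading depends on its neighbours was not tested. Within 30 kb of a member's probes the array held 12 other probes in all, near 6 of the 9 genes.

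**Figure D2:**
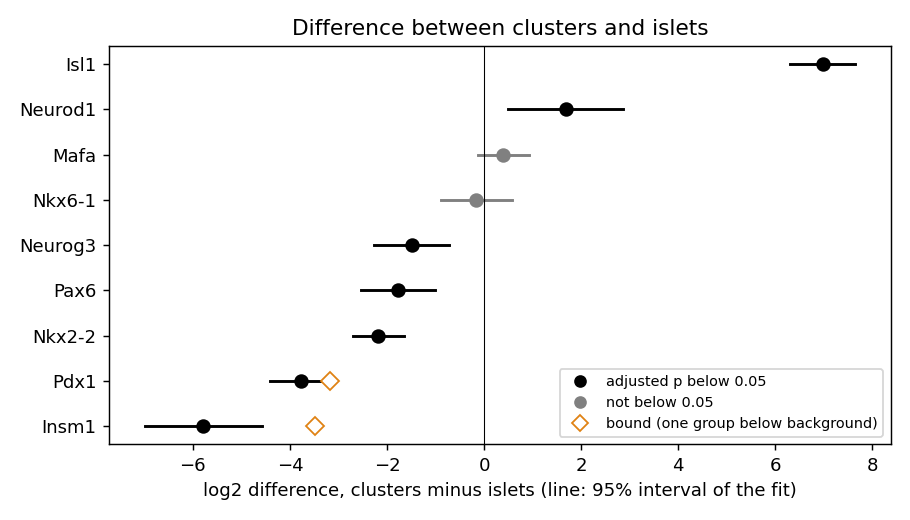
Difference of each factor between clusters and islets (x axis, log2, clusters minus islets), with the 95% interval of the limma fit as a line and an open diamond for the bound of genes not above background in clusters. Isl1 at 6.97 and Neurod1 at 1.68 lie to the right of 0, and the intervals of Mafa and Nkx6-1 cross it.

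**Figure D3:**
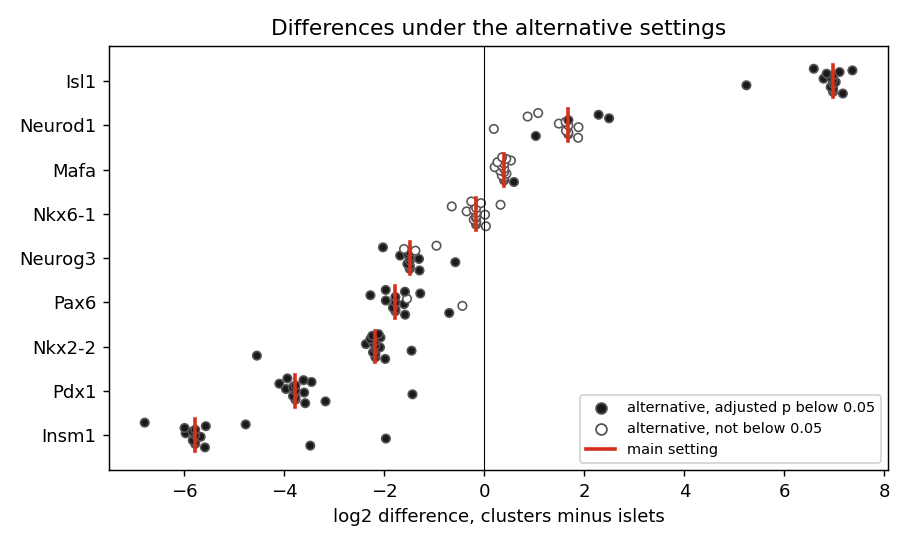
Difference of each factor under the alternative settings (points, log2, clusters minus islets), filled where the adjusted p was below 0.05, with the value of the main setting as a red line. Isl1, Nkx2-2, Pdx1 and Insm1 were called in every alternative that tested them, and most Neurod1 points are open.

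The 2 islet arrays did not read the factors alike. Insm1 was 2.02 higher on islet replicate 1 than on replicate 2, Neurod1 1.21 and Isl1 0.77, whereas Neurog3 was lower there (-1.07). In all, 7 of the 9 factors were higher on replicate 1, with a median of 0.32 against -0.02 over all genes tested. The endocrine markers moved further in the same direction, all 9 being higher on replicate 1 with a median of 2.19, among them Ins2 by 2.60, Gcg by 2.02 and Iapp by 3.07. Acinar markers were higher on replicate 1 in 2 of 10 genes, with a median of -0.43. Pdx1 (0.32), Nkx6-1 (0.19), Mafa (0.08) and Nkx2-2 (-0.13) differed little between the islet arrays although the insulin genes differed by over 2. Between the cluster arrays the median gap, replicate 1 minus replicate 2, was 0.27 for the 9 factors and 0.22 over all genes tested. With 1 array on each side there is no test of these gaps.

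**Figure D4:**
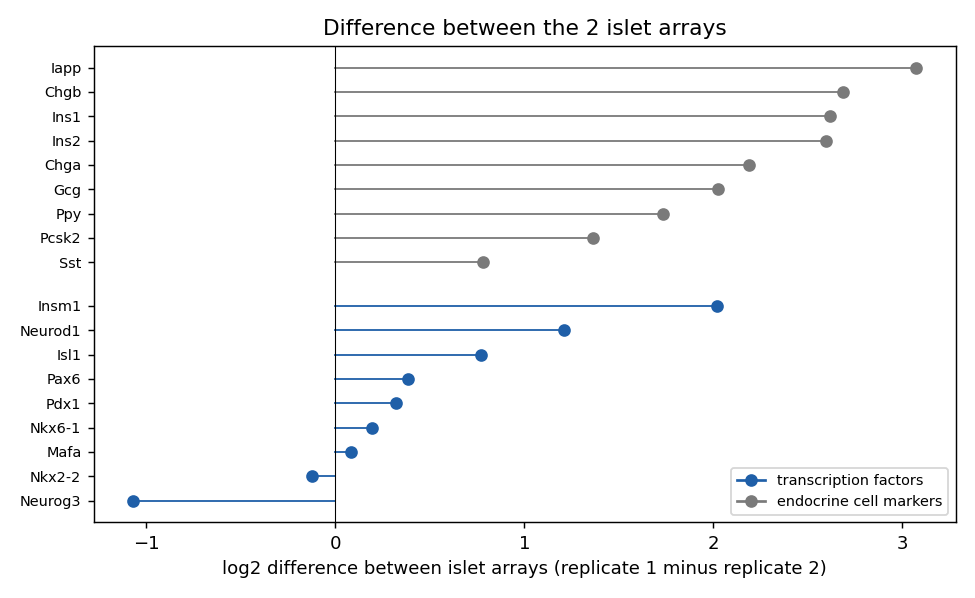
Difference between islet replicate 1 and islet replicate 2 (x axis, log2, replicate 1 minus replicate 2) for the 9 factors in blue and 9 endocrine markers in grey. The markers range from Sst at 0.78 to Iapp at 3.07, and the factors from Neurog3 at -1.07 to Insm1 at 2.02.

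Other genes of the pathway were read from lists drawn up for this purpose. Of 35 further islet and pancreas transcription factors 24 were tested, with 16 lower, 4 higher and 4 not called in clusters and a median difference of -1.54, against 28.2% lower and 26.6% higher of all genes. The forkhead factor Foxa2, a regulator of Pdx1, was at least 1041-fold lower in clusters, where neither array was above background. Ptf1a, the acinar and progenitor bHLH factor, was at least 707-fold lower and the nuclear receptor Hnf4a at least 602-fold lower. With normexp the differences of Foxa2, Ptf1a and Hnf4a were -7.64, -7.10 and -6.99, smaller than these bounds. The list shares 2 tested genes, Ptf1a and Bhlha15, with the acinar markers and 2, among them Sox9, with the duct markers, and acinar RNA was high in the islet arrays alone, as given above. Its part in these differences was not tested.

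The 4 factors higher in clusters included the ETS factor Etv1 and the Iroquois homeodomain factor Irx2. Etv1 read 6.30 and 6.06 in clusters and -0.38 and -0.41 in islets, 95.2-fold higher (adjusted p = 2.82e-08). Irx2 read -0.25 and -0.43 against -6.17 and -6.72, not well above background in islets, and was at least 21.5-fold higher (2.10 on the log2 scale with normexp). Of the 11 factors not tested, among them Pax4 and Rfx6, 9 were not well above background on any array.

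Genes that these factors regulate in beta and other endocrine cells were mostly lower. Of 30 listed 23 were tested, with 16 lower, 4 higher and 3 not called, against 28.2% lower and 26.6% higher of all genes. The median difference was -2.89 (-2.79 with genes below background at their bound). The number lower was 11 with the trended and robust variance and 13 with either cluster array left out, and the median was -1.34 with normexp. The amyloid peptide gene Iapp was at least 464-fold and the glucagon gene Gcg at least 316-fold lower in clusters, and the granin Chgb differed by -7.56, though Chgb missed the threshold (adjusted p = 0.0507) when the variance was given a trend and fitted robustly. Their sizes depend on the islet array, which gave gaps of 3.07, 2.02 and 2.69 between replicates 1 and 2, and with normexp the differences of Iapp and Gcg were -6.58 and -6.03, smaller than these bounds. The list shares 9 genes with the endocrine markers used to check the tissue, so the 2 counts are not separate.

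The targets higher in clusters included Ptprn, Nnat and Ghrl. Ptprn, a dense-core granule membrane protein, read 1.97 and 1.73 in clusters and -3.73 and -4.30 in islets, a difference of 5.87 (3.81 with normexp). Nnat, which beta cells use in insulin processing, read -1.53 and -1.64 against -5.59 and -5.37 and was at least 9.03-fold higher (1.20 on the log2 scale with normexp). Ghrl, the ghrelin gene, differed by 0.85 and lost its call with normexp (0.36). The call was also lost without cluster replicate 1 (0.76) or either islet array (0.85 in each), fits that leave 1 array in a group.

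Most relatives and partners of Isl1 did not pass the test. Of 20 LIM-homeodomain and LIM cofactor genes 16 were tested, with 2 higher, 4 lower and 10 not called, against 26.6% higher and 28.2% lower of all genes. The median was -0.12, and its sign was not stable (0.08 with array median scaling and 0.041 without cluster replicate 2). Isl2, the closest relative of Isl1, read -2.45 and -2.65 in clusters and -7.14 and -6.83 in islets, not well above background in islets, and was at least 4.63-fold higher, though by 0.77 on the log2 scale with normexp. Lmo4, a LIM-only protein that competes for the cofactor Ldb1, read 6.25 and 6.09 against 4.28 and 3.76. Ldb1 itself, which bridges LIM factors on DNA, read 1.57 and 1.29 against 1.12 and 0.98 and did not pass, except with array median scaling (0.58, adjusted p = 0.0446). Lhx5 (-5.39), Lmo2 (-4.25) and Lmo1 (at least 4.55-fold) were lower, and with normexp their differences were -3.08, -2.32 and -0.78.

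Partners, relatives and inhibitors of the bHLH factors were more often higher than lower in clusters. Of 13 tested, 7 were higher, 2 lower and 4 not called, against 26.6% higher and 28.2% lower of all genes. The median was 0.85. It was 0.89 without islet replicate 1, 0.80 without islet replicate 2 and 0.74 without cluster replicate 1. Id4 differed by 3.28 and Id3 by 1.89, both Id proteins, which bind E-proteins and keep them from DNA. Ascl2, a bHLH factor of stem cells, differed by 2.72. The E-proteins Tcf3, Tcf4 and Tcf12, the dimer partners of Neurod1 and Neurog3, differed by 0.98, 1.56 and 1.01. Of these Tcf4 kept its call in all 16 alternatives. Tcf3 and Tcf12 lost theirs without cluster replicate 1 or either islet array, fits that leave 1 array in a group. Their differences were 0.84 and 0.94 without cluster replicate 1 and 1.07 and 1.21 without islet replicate 1. Without islet replicate 2 they were 0.88 and 0.82. Tcf12 also lost its call with the mean of its probes (0.58, adjusted p = 0.0812). The Notch effectors Heyl (-5.09) and Hey1 (-2.79) were lower.

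Corepressors that act with these factors and the neuronal and endocrine gene repressor Rest were also read. Of 13 tested, 6 were higher, 2 lower and 5 not called, against 26.6% higher and 28.2% lower of all genes. The median was 0.58. That median was 0.0075 with non-uniform spots kept, 0.046 with the mean of a gene's probes and 0.27 without islet replicate 2. Without islet replicate 1 the median was 0.86. Tle3, a Groucho corepressor that works with Nkx2-2 and Nkx6-1, differed by 1.61 and the deacetylase Hdac1 by 1.57, whereas Tle4 (-2.60) was lower. Rest read 1.97 and 1.74 in clusters and 1.05 and 0.99 in islets (0.83, adjusted p = 0.0135), and it lost its call in 4 of 16 alternatives. These were the mean of its probes (0.29, adjusted p = 0.340) and leaving out cluster replicate 1 (0.71), islet replicate 1 (0.86) or islet replicate 2 (0.80). Fits without an array leave 1 array in a group.

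**Figure D5:**
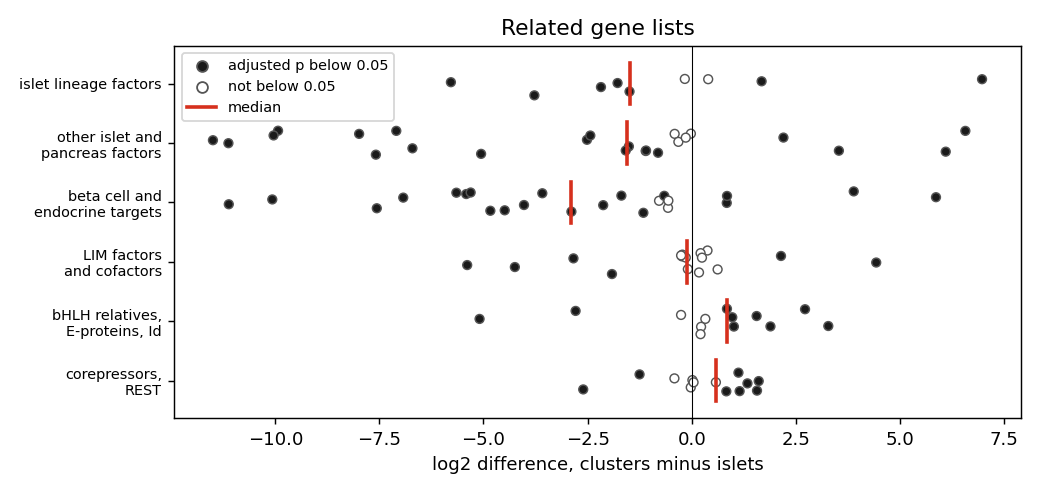
Differences between clusters and islets (x axis, log2, clusters minus islets) of the tested genes of each list, filled where the adjusted p was below 0.05, with the median of each list as a red line. The median is -1.49 for the 9 factors, -1.54 for other islet and pancreas factors and -2.89 for their endocrine targets, and 0.85 for the bHLH partners. The corepressor median of 0.58 fell to 0.0075 when non-uniform spots were kept.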

How the data were processed

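Values are scanner intensity on a linear scale, which the authors deposited for each array. The scanner software was Feature Extraction 11.5.1.1 and probe positions are on mm9, per the file headers. The software subtracted background from the processed signal and put a surrogate value in its place where a spot did not exceed background. The software's marks for spots above background or non-uniform, deposited as codes with no unit, were used as given. The authors' value table holds log2 values. Its columns correlated with the scanner values at r = 0.99995 or higher and had medians of -3.61 and -3.70 for clusters and -3.50 and -3.37 for islets, with no centring per gene, and it served as an alternative.

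The level of a probe was its processed signal on a log2 scale, less the array's 75th percentile, over non-control spots not marked non-uniform (490 probes had a missing value and were dropped). A gene was read from its brightest kept probe. limma 3.58.1 in R 4.3.3 (lmFit, eBayes, no covariates, 9.06 degrees of freedom in all, 2-sided) compared the groups, which were taken from the sample titles. It was tested on simulated data. The number of arrays limits the precision.

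All 9 members were named, from each list up to 3 called genes per direction with the largest change, and the 3 genes most like the members of highest and lowest fitted difference. Some items eligible by this rule are not reported here. Genes added outside this rule are Tcf3, Tcf4, Tcf12, Ldb1, Rest, the insulin and marker genes and the neighbouring probes. The members, lists, tests and alternatives were chosen with earlier results of these data known. Alternatives covered background, scaling, filters, probe choice, the authors' table, the variance model, a replicate block and leaving out each array. Replicate numbers were not treated as pairs in the main fit. The deviations of same-numbered arrays correlated at -0.02, which cannot show whether those arrays shared mice or preparation. Protein sequences and probe positions within exons were not used here.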

Additional observations from a re-analysis of the deposited data

How the results depend on the processing

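The direction of 8 of the 9 factors held in every alternative that tested them. Nkx6-1, never called, turned to 0.031 with array median scaling and 0.014 with quantile normalization, and ranged from -0.65 to 0.32 with 1 array left out (0.32 without cluster replicate 2). Members called ranged from 3 to 7 over 16 alternatives. The count of 3 came from probes well above background on all arrays, which tests only 5 of the 9 genes. With 1 array left out, members called ranged from 5 to 7 and genes called from 7650 to 10120. With the replicate number as a block 11307 genes and 6 members were called, Neurod1 losing its call, and no other member's call changed with the block. Scaling to the array median moved the median difference of all genes to 0.09 and taking the percentile over probes detected on all arrays moved it to -0.29. With normexp 5 members were called, and the differences of the 7 members called above were all smaller in size. The 58 other genes and neighbouring probes named with a difference or eligible by rule gave 904 values under the alternatives. Of these 864 kept direction and call, 33 in 12 genes lost the call, 1 (Ldb1) gained it and 6, all of Sox10, changed sign. Sox10, never called, was -0.045 with non-uniform spots kept, -0.049 with normexp, -0.19 with the percentile over detected probes and -0.05 with the authors' value table, and ranged from -0.10 to 0.11 with 1 array left out (-0.10 without cluster replicate 1, -0.050 without islet replicate 2). Spots near background limit Insm1, Pdx1, Pax6, Neurod1 and the second Nkx2-2 probe to bounds or uncertain sizes. Low signals also leave the size of the Neurog3 difference uncertain (-0.58 with normexp).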
